A study of Mus musculus with 31 samples.

Results

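Chromatin accessibility was examined at 8 genes of cholesterol metabolism in the parental line of NIH-3T3, fibroblasts derived from mouse embryos. The genes were chosen by name, with earlier results of these data known. They are 3 regulators of sterol synthesis (Srebf1, Srebf2 and Insig1), 4 enzymes of the pathway (Hmgcs1, Idi1, Fdps and Sqle) and the exporter Abca1. None of the 8 encodes a receptor for cholesterol uptake, and Abca1 moves cholesterol out of the cell. The 8 genes are compared with all 21938 protein-coding genes of the GENCODE annotation, and 33 of the 63456 peaks in the library lie at or within 25 kb of them.

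Cells sense sterols through the SREBP transcription factors, which are made as membrane proteins of the endoplasmic reticulum. When sterols are scarce, SREBPs are carried to the Golgi, cut by proteases and released to the nucleus, where they bind sterol regulatory elements in the promoters of synthesis genes together with the general promoter factors NF-Y and Sp1. INSIG proteins hold the SREBPs back when sterols are plentiful, while the sterol-sensing LXR receptors turn on efflux genes such as Abca1.

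The series compares chromatin accessibility after induction of different transcription factors in NIH-3T3 cells, and the parental line, which carries no transcription factor transgene, is the only sample analysed here. The labels give 50000 collected cells, 0.5 µM Tn5 and 12 PCR cycles for it and list no doxycycline, the drug that induces the transgenes in the other lines. ATAC-seq uses the Tn5 transposase to insert sequencing adapters into DNA that is free of nucleosomes, so fragments pile up over accessible sites. A single library allows no estimate of replicate error, and every value below describes this library without a test between samples. Promoters of 6 of 6 fibroblast markers had a peak, at folds of 3.41 to 7.79, as did 2 of 6 markers of other cell types (Krt8 at 3.25 and Pecam1 at 8.40), while Alb, Ttr, Epcam and Ptprc had none. The other 30 samples were not analysed here.

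The sequences around the annotated starts show what the peaks lie on. RefSeq promoter entries (GRCm38.p6, the same build as mm10) matched 6 of the 8 genes: Srebf1, Srebf2, Insig1, Hmgcs1, Idi1 and Abca1. Each stretch below runs 5′ to 3′ in the direction of the gene and stops at its first annotated exon. Capitals mark every match, on either strand, to the SREBP site TCACNCCAC, the E-box CACGTG, the NF-Y site CCAAT or the Sp1 site GGGCGG, where N is any base. The first 3 stretches show contrasts in sequence among the genes that have both a promoter peak and a RefSeq entry. Of those genes, Hmgcs1 (chr13:119690101-119690378, plus strand) holds the only full SREBP site and Insig1 (chr5:28071162-28071362, plus strand) the only E-box. Idi1 (chr13:8885356-8885500, plus strand) has no match in the bases printed. The stretches differ in length, and that of Idi1 is the shortest of the 3. Those of Idi1 and Insig1 stop before their RefSeq starts (chr13:8885606 and chr5:28071412), while that of Hmgcs1 runs past its own (chr13:119690351). The 300 bp window at the start of Idi1, used for the motif counts below, holds 1 Sp1 match.
Hmgcs1 promoter: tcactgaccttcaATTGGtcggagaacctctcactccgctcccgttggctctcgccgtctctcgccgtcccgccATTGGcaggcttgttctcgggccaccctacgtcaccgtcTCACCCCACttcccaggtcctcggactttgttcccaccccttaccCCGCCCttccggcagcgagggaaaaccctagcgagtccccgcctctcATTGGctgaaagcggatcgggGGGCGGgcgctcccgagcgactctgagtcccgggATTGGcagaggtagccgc
Insig1 promoter: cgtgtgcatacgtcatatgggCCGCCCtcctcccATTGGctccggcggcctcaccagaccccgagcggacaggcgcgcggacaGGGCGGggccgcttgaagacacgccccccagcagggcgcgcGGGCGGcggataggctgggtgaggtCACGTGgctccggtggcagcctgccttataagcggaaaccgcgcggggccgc
Idi1 promoter: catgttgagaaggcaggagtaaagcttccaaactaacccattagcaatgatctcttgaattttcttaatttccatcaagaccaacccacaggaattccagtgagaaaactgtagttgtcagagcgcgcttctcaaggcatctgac

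The next 4 stretches are shown because a peak covers only some of them. Srebf2 (chr15:82147019-82147180, plus strand) and the upstream start of Srebf1 (chr11:60220605-60220877, minus strand) lie under peaks, whereas the downstream start of Srebf1 (chr11:60210466-60210721, minus strand) and the start of Abca1 (chr4:53159896-53160145, minus strand) do not.
Srebf2 promoter: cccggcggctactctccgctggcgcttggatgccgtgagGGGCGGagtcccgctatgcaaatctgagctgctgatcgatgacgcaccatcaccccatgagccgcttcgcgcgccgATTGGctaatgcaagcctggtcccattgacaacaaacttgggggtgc
Srebf1 upstream promoter: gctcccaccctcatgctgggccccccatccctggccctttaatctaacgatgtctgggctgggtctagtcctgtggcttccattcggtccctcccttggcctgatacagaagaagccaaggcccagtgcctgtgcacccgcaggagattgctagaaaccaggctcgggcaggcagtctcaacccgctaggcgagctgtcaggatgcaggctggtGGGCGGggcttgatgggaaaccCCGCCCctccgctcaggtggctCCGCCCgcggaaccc
Srebf1 downstream promoter: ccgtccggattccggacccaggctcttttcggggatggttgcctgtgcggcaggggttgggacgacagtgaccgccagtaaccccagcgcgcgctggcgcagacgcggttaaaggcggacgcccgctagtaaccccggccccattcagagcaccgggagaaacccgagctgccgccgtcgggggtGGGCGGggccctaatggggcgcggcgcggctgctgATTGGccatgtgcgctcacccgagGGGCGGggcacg
Abca1 promoter: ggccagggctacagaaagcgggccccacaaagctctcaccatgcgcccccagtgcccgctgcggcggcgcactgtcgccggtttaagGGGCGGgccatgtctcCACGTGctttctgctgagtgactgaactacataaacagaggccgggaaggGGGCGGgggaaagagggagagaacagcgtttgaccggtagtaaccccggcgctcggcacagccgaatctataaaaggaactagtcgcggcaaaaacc

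Promoter peaks, meaning peaks within 1 kb of any annotated transcription start of the gene, were listed for 7 of the 8 genes, where 53.7% of all protein-coding genes had one. Abca1 was the exception. With 8 genes chosen by name, the count is small to set against that share. The height of a peak is given as its fold enrichment, the fragment pileup at the summit over the pileup that the peak caller expected there, each with 1 added. Folds of the strongest promoter peak ran from 6.59 at Srebf1 to 17.2 at Idi1, with a median of 11.3, against a median of 9.86 (quartiles 7.27 and 12.4) over the 11788 coding genes with a promoter peak. Of the 7 genes, 6 lay above that median and 3 (Idi1, Hmgcs1 and Fdps) above its upper quartile.

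**Figure D1:**
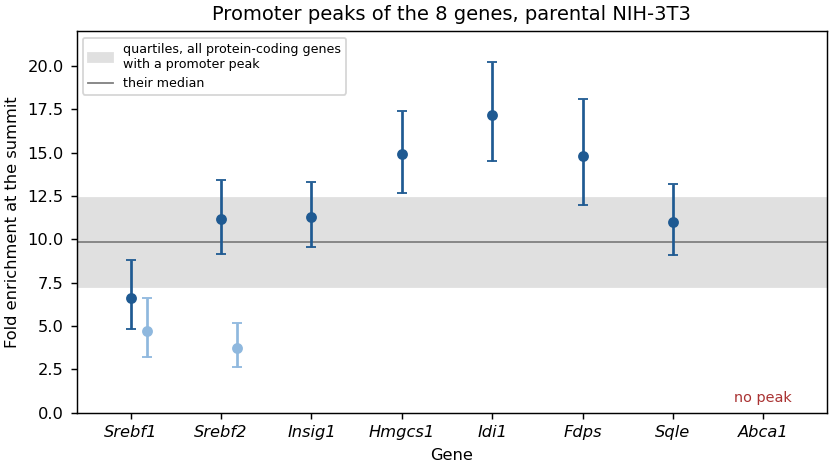
Fold enrichment at the summit (y axis, no unit) of the promoter peaks of each gene (x axis), as dots with 95% Poisson intervals that cover counting error only. Pale dots are second promoter peaks, and the grey band and line give the quartiles 7.27 and 12.4 and the median 9.86 of all coding genes with a promoter peak; among the strongest peaks (dark dots) Idi1 stands highest at 17.2 and Srebf1 lowest at 6.59, and Abca1 has no dot.

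Among the enzymes, Idi1, which interconverts the activated isoprene units isopentenyl and dimethylallyl diphosphate, had the highest promoter peak of the 8 genes. Its peak at chr13:8885272-8886203 reached a fold of 17.2 (95% interval 14.5 to 20.2) with 142 fragments at the summit where 7.33 were expected, and a −log10 q of 122. The summit lay 86 bp after the start, in the first exon, and the fold was at the 97.5th percentile of coding genes with a promoter peak. The start of another gene, Gm48574, lies within 1 kb of the same peak, so the accessibility of the 2 starts cannot be told apart.

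Hmgcs1 encodes the cytosolic synthase that makes HMG-CoA, an early step of the mevalonate route. Its promoter peak at chr13:119689980-119690896 had the most summit fragments of the 8 genes, 160 against 9.80 expected, with a fold of 14.9 (12.7 to 17.4) and a −log10 q of 127. The summit lay 250 bp before the GENCODE start, and 89 bp from the SREBP site capitalised above, which begins 137 bases before the RefSeq start. Idi1 was higher by fold and Hmgcs1 by summit fragments, since the expected pileup at Hmgcs1 was larger, and their fold intervals overlap.

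Fdps, which condenses isoprene units into farnesyl diphosphate at the branch between sterols and other isoprenoids, had a promoter peak at chr3:89101616-89102394. It reached a fold of 14.8 (12.0 to 18.1) from 93 fragments against 5.36 expected, with a −log10 q of 75.9 and a summit 96 bp before the start. That fold lay at the 90.6th percentile of coding genes with a promoter peak, and the start of another gene, Gm43738, lies within 1 kb of the same peak.

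Sqle, the oxygen-dependent epoxidase that prepares squalene for closure of the sterol rings, had the lowest promoter peak of the 4 enzymes. The peak at chr15:59314501-59315514 had a fold of 11.0 (9.10 to 13.2), 116 fragments against 9.64 expected, and a −log10 q of 77.7. Its summit lay 30 bp before the start, and its fold stood at the 61.7th percentile. The interval of Sqle did not overlap that of Idi1 but overlapped those of Hmgcs1 and Fdps. Among the enzymes, only the extremes therefore had intervals that stood apart. Overlap does not show that a difference lies within counting error, and the folds of Sqle, Hmgcs1 and Fdps were not compared by a direct test.

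The 3 regulators had lower folds than Idi1, Hmgcs1 and Fdps, although the intervals of Insig1 and Srebf2 overlapped those of Hmgcs1 and Fdps. Insig1, the endoplasmic reticulum protein that retains SREBPs, had a promoter peak at chr5:28070692-28072215 of 1524 bp, a width at the 96.0th percentile of promoter peaks, whose median was 796 bp. Its fold was 11.3 (9.57 to 13.3) with 149 summit fragments against 12.3 expected, so that Insig1 came next to Hmgcs1 by fragments but below Idi1, Hmgcs1 and Fdps by fold. The summit lay 252 bp before the start. The peak is also within 1 kb of the start of Gm26608.

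Srebf2 encodes SREBP-2, which acts mainly on cholesterol genes. It had a pair of promoter peaks, the stronger at chr15:82146780-82147408 with a fold of 11.2 (9.17 to 13.4), 108 summit fragments and a −log10 q of 73.3. The summit of this peak lay 69 bp before the first start. The weaker one, at chr15:82147601-82148041, reached 3.75 (2.65 to 5.18) with 35 fragments, its summit 665 bp after that start and the starts of 2 other Srebf2 transcripts (chr15:82148013 and chr15:82148025) inside it. The folds of Insig1, Srebf2 and Sqle lay between 11.0 and 11.3 and their intervals overlapped, so these 3 are not ordered by the data.

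Counting only the strongest promoter peak of each gene, Srebf1 had the lowest of the 7, and its interval overlapped that of no other strongest peak. Srebf1 encodes SREBP-1 and is transcribed from alternative promoters, the upstream one giving SREBP-1a and a downstream one SREBP-1c, the form that dominates in liver. The peak at the upstream start, chr11:60220260-60220856, had a fold of 6.59 (4.81 to 8.82), 43 summit fragments against 5.68 expected, a −log10 q of 20.9 and a summit 21 bp before the start of the coding transcript there (chr11:60220604). A second peak at chr11:60219766-60220119 reached 4.70 (3.22 to 6.64) with 30 fragments and its summit 751 bp after that start.

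No peak lay near the downstream promoter of Srebf1. Of its 12 distinct annotated starts only 1, the upstream coding start, had a peak within 1 kb. A coding start and a non-coding one at the downstream promoter, 10139 and 10212 bp after it, were 9301 and 9374 bp from the nearest peak. A non-coding start farther upstream was 1725 bp from a peak. Over all 8 genes, 25 of 43 distinct starts had a peak within 1 kb, against 45.2% of the starts of all coding genes. The remaining peak in Srebf1, with a fold of 3.41 and 19 fragments, lay in the last exon and was 1027 bp from the start of a non-coding transcript, just outside the 1 kb limit, while the peak just inside it for Srebf1 lay 485 bp from a start. The stretch printed for the downstream start holds 2 Sp1 matches and 1 NF-Y match, and the stretch for the upstream start 3 Sp1 matches and no NF-Y match.

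**Figure D2:**
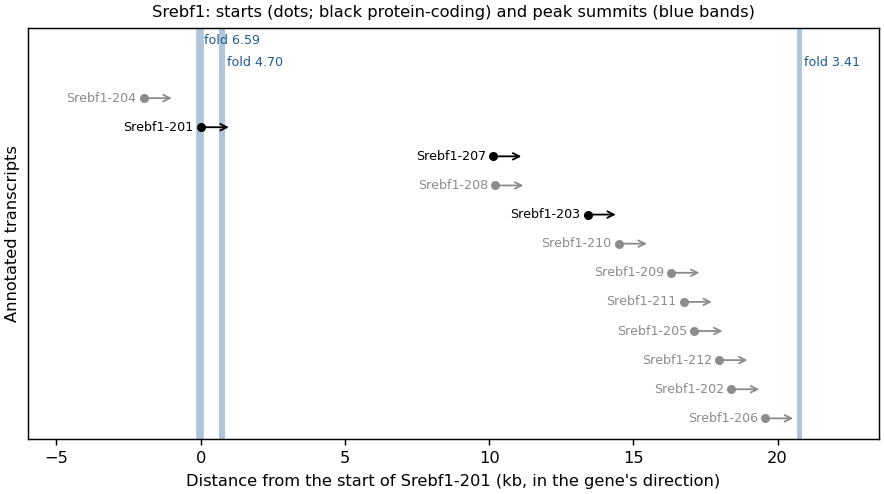
Annotated starts of Srebf1 (dots with arrows, black for protein-coding transcripts, 1 per row) and the summits of its 3 peaks (vertical bands, wider for higher fold) by distance from the upstream coding start (x axis, kb). The peaks with folds 6.59 and 4.70 sit at the upstream start, the peak with fold 3.41 near the end of the gene, and none at the downstream starts about 10 kb in.

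Abca1, the ATP-dependent transporter that loads cholesterol onto apolipoprotein A-I, had no listed peak within 1 kb of either annotated start. The nearest peak to the start of its coding transcript (chr4:53159895) was 21588 bp away. A missing peak means that no stretch passed the peak caller's limit or that a peak was discarded afterwards, since the ATAC-seq methods point to the ChIP-seq procedure, in which peaks in input and in blacklisted regions were removed. The lowest listed summit held 10 fragments, and the lowest fold at the genome-wide background was 2.88. The start window of Abca1 (250 bp before to 50 bp after the start) had a CpG observed-to-expected ratio of 0.888, at the 81.9th percentile of coding genes, and of the 3971 coding genes with at least that ratio 89.1% had a promoter peak.

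The peaks of Abca1 lay away from its start. Upstream, a peak at chr4:53181483-53181970 had a fold of 14.4 (11.1 to 18.4) with 62 fragments against 3.37 expected, its summit 21.8 kb before the start. In the gene body, 2 intronic peaks had folds of 4.70 and 5.78, with 17 and 21 fragments, at 42.1 and 77.2 kb after the start. The last, at the end of the gene, reached 7.09 with 26 fragments. A downstream peak with a fold of 12.6 lies at the start of the neighbouring gene Nipsnap3b. Abca1 was thus a gene without a promoter peak that had both gene body and flank peaks, a class that made up 18.0% of the coding genes without a promoter peak.

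Around the 8 genes as a whole, the 33 peaks divided into 9 promoter peaks, 7 in gene bodies and 17 in the 25 kb flanks. Gene body peaks were found in 4 of 8 genes (Srebf1, Srebf2, Hmgcs1 and Abca1), against 34.3% of coding genes, and flank peaks at 7 of 8, all but Srebf1, against 71.4%. The enzymes Sqle, Idi1 and Fdps and the regulator Insig1 had a promoter peak and no gene body peak, 4 of 8 against 30.1%. They are the 4 shortest of the 8 genes, at 7.0 to 16.1 kb. The 4 with a gene body peak are 17.9 to 129.1 kb long. Neither share was matched for gene length, and the role of length was not tested. Of the 17 flank peaks, 6 lay within 1 kb of the start of another gene: 2 at Ccdc134 upstream of Srebf2, 1 at Wdr37 and Gm48374 upstream of Idi1, 2 at Rusc1 downstream of Fdps and 1 at Nipsnap3b. With them set aside, Idi1 and Fdps had no peak other than the promoter peak. Srebf2 had the most peaks, 8, and Insig1 6, where the coding median was 3 (quartiles 1 and 6).

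**Figure D3:**
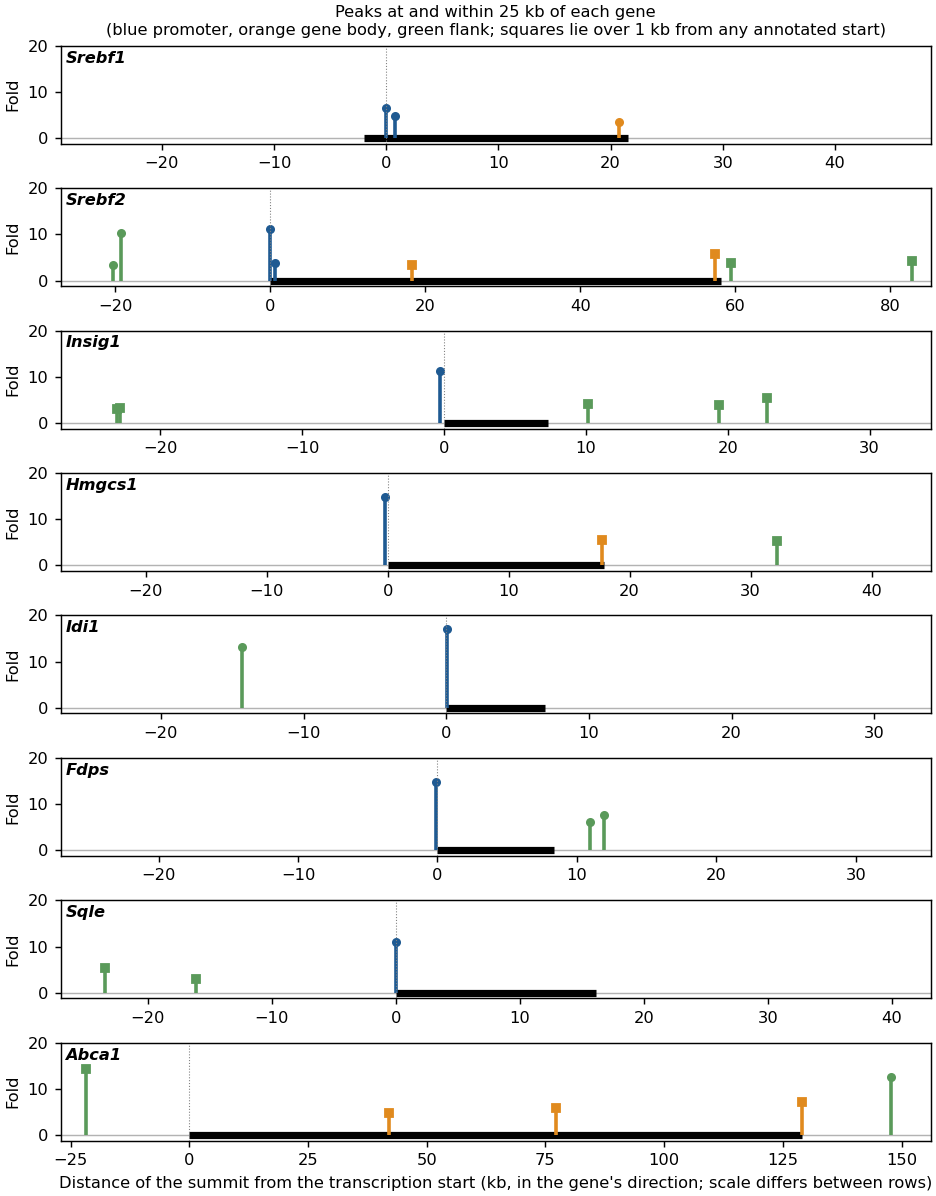
Peaks at and within 25 kb of each gene, 1 gene per row, drawn at the distance of the summit from the gene's start (x axis, kb, scale differing between rows) with the fold as height (y axis, no unit). The black bar is the gene, blue marks promoter peaks, orange gene body peaks and green flank peaks, and squares lie over 1 kb from any annotated start. The 5 peaks of Abca1 all lie away from its start, while every other gene has its highest peak among its promoter peaks.

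The outermost peak inside the 25 kb limit lay 24.5 kb from Srebf2, with a fold of 4.22, and the nearest outside lay 28.0 kb from Insig1, with a fold of 12.0. That peak was close in height to the promoter peak of Insig1 itself, at 11.3.

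Each of the 4 genes with a gene body peak had one near its 3′ end, a feature chosen after the values were seen. The summits lay in the last exon, 1 bp before the annotated end of Abca1 (fold 7.09), 134 bp before that of Hmgcs1 (5.52), 757 bp before that of Srebf1 (3.41) and 772 bp before that of Srebf2 (5.70). A peak with its summit in the last 1 kb of the gene and over 1 kb from the gene's own starts was thus present in 4 of 8 genes, against 2.17% of coding genes. For peaks over 1 kb from every annotated start it was 3 of 8 against 1.93%, since the peak of Srebf1 lies within 1 kb of the microRNA gene Mir6921. Of the other 41 list genes 1, Pmvk, had such a peak. Summit fragments numbered 55 at Srebf2, 26 at Abca1, 20 at Hmgcs1 and 19 at Srebf1.

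Distal peaks, those over 1 kb from every annotated start, numbered 17 and belonged to 5 genes: Insig1 with 5, Srebf2 and Abca1 with 4 each, and Hmgcs1 and Sqle with 2 each. They were low. Their folds ran from 2.87 at Sqle to 14.4 at Abca1 with a median of 4.70, against 5.54 (quartiles 4.15 and 8.14) over the 47192 distal peaks of the library, and 4 of the 17 exceeded that median. Those 4 were the upstream peak of Abca1, 2 of its gene body peaks and the peak in the last exon of Srebf2 at 5.70.

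The 5 distal peaks of Insig1 were all weak. The pair 22.9 and 23.1 kb before its start had folds of 3.29 and 3.03, each with 15 fragments, and the 3 downstream of the gene, 10.2, 19.4 and 22.8 kb after its start, had 4.08, 3.87 and 5.30. Counting intervals of these 5 overlapped one another, the widest gap being between 3.03 (1.78 to 4.87) and 5.30 (3.47 to 7.78). The 2 distal peaks of Sqle, 16.1 and 23.4 kb before its start, had folds of 2.87 and 5.26 from 13 and 25 fragments.

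AP-1, the FOS and JUN family of dimers, binds TGANTCA and is abundant in cultured fibroblasts. A match lay within 50 bp of the summit of 4 of the 17 distal peaks, against 31.9% of all distal peaks. Abca1 accounted for 3 of the 4, with matches at 3 of its 4 distal peaks, and the last was a peak downstream of Hmgcs1 inside the neighbouring gene Nim1k. The matches lay 31 to 41 bp from the summit, so none was at the summit itself. The following windows are shown for 2 Abca1 peaks, the upstream one (chr4:53181602-53181702, plus strand) and the intronic one with a fold of 4.70 (chr4:53117743-53117843, plus strand), and for the Hmgcs1 peak (chr13:119722553-119722653, plus strand), with the AP-1 match in capitals.
Abca1 upstream summit: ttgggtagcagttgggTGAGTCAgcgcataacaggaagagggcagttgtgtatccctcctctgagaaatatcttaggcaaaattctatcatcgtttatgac
Abca1 intronic summit: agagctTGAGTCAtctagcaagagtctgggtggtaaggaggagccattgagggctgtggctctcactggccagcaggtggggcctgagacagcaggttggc
Hmgcs1 downstream summit: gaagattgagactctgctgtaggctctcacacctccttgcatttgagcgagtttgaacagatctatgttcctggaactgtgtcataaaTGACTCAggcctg

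In the 300 bp around the start used for each gene (250 bp before to 50 bp after the GENCODE start), the SREBP site TCACNCCAC matched in 1 of the 7 genes with a promoter peak, Hmgcs1, against 1.12% of coding genes with one. With the last letter dropped, Srebf2 matched as well, 2 of 7 against 3.45%. Only exact letters were searched, so a gene without a match is not shown to lack a site. NF-Y matches, in either orientation, were present in 5 of 7 (Srebf2, Hmgcs1, Sqle, Fdps and Insig1), against 40.0%, with 3 each at Hmgcs1 and Fdps. Sp1 matches were present in 6 of 7, all but Fdps, against 64.5%. The E-box matched in 1 of 7, Insig1, against 10.3%, and also in Abca1, 147 bases before its start. The AP-1 letters matched in 0 of 7, against 5.96%.

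The other genes of the pathway came from incomplete lists of 49 genes that include the 8, also chosen with earlier results of these data known. A promoter peak was present at 44 of the 49, and at 37 of the 41 without the 8 genes (90.2%), against 53.7% of coding genes. By role, 9 of 9 regulators, 8 of 9 genes of the mevalonate and isoprenoid steps, 13 of 13 of the sterol steps, 8 of 9 of uptake, transport and esterification and 6 of 6 fatty acid targets of SREBP-1 had one. The efflux list had none, 0 of 3, which is too few genes to set against the 53.7%. Besides Abca1, this list held the transporters Abcg1, whose nearest peak lay 2289 bp from a start, and Abcg4, at 16.8 kb. With a limit of 5 kb in place of 1 kb, Abcg1 had a promoter peak. The other genes without a promoter peak were Idi2, a paralogue of Idi1, and Soat2, a cholesterol acyltransferase.

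Of the 4 enzymes among the 8 genes, 3 lay above the median fold of their list. The highest folds were those of Msmo1, a sterol demethylation enzyme, at 18.5, of Acat2, which makes acetoacetyl-CoA for Hmgcs1, at 17.3, and of Hsd17b7, a sterol ketoreductase, and Idi1, both at 17.2. The median fold was 14.0 for the mevalonate and isoprenoid steps, 12.4 for the sterol steps, 10.8 for the regulators and 8.97 for the fatty acid targets. Sqle, at 11.0, was below the median of its list, and Srebf1, at 6.59, was below every other regulator except Nr1h2, which encodes LXR beta, at 5.97. Insig2, the paralogue of Insig1, had a fold of 14.4 with 165 fragments. NF-Y letters were present at 31 of the 44 genes with a promoter peak and at 12 of 13 of the sterol steps, against 40.0% of all coding genes with a promoter peak. The full SREBP letters were present at 2 of the 44, Hmgcs1 and Stard3, against 1.12%.

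**Figure D4:**
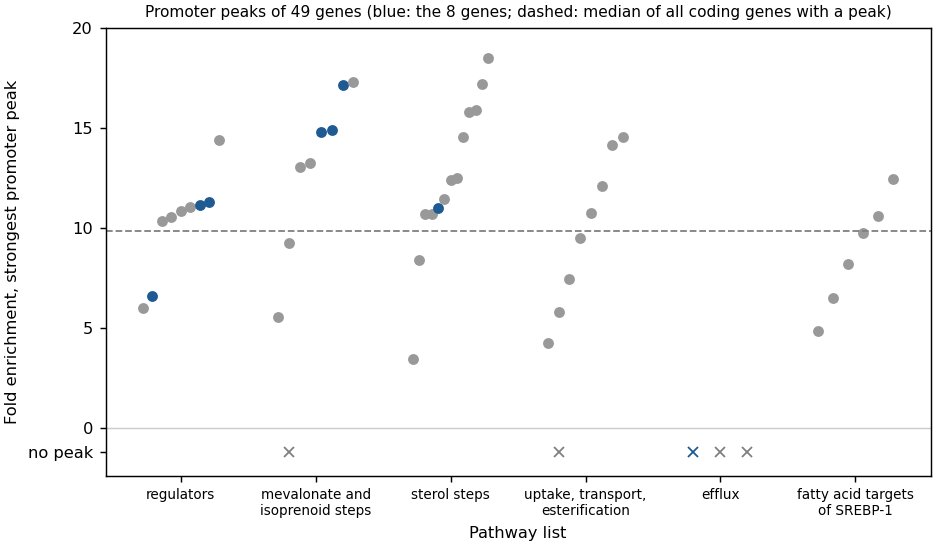
Fold enrichment of the strongest promoter peak (y axis, no unit) of 49 genes by pathway list (x axis), 1 dot per gene, with crosses for genes that have no promoter peak. Blue marks the 8 genes and the dashed line the median 9.86 of all coding genes with a promoter peak; 3 of the 4 highest genes of the mevalonate list are blue, and all 3 efflux genes are crosses.

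Srebf2 also hosts a microRNA, miR-33, which is known to repress Abca1. Its hairpin lies in an intron of Srebf2 at chr15:82198122-82198190 on the plus strand, and the nearest peak was 6.0 kb away, so no separate accessible site was listed at it. The mature form from the 5′ arm is shown because it ties the regulator to the exporter, with its seed (bases 2 to 8) in capitals.
mmu-miR-33-5p: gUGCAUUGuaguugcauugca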

How the data were processed

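The data are the ATAC-seq peak list of 1 parental NIH-3T3 library. Per the labels and the methods, the authors aligned 75-nucleotide paired-end reads to mm10 with STAR 2.5.3a, kept uniquely mapped reads on the autosomes and sex chromosomes, discarded duplicates with Picard and used MACS2 2.1.1.20160309 on whole fragments to call peaks. The authors deposited a score, a fold enrichment (a ratio), a −log10 p-value and a −log10 q-value for each peak. The score was not used. No shift for the Tn5 cut is described. The methods give a range of reads per sample, but the number for this library is not in the peak list. They also describe discarding peaks that overlap input peaks or blacklisted regions for ChIP-seq, and refer to that for ATAC-seq. The methods describe PCR cycles set by qPCR and doxycycline for NIH-3T3 cells in general, which the labels of this sample do not.

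Summit and expected fragments were solved from the fold and the −log10 p with a Poisson tail. Of the 63455 peaks solved, 99.997% gave whole numbers within 0.02, with a median of 29. The 95% exact Poisson intervals cover counting error only. Peaks, positions counted from 1, were compared with GENCODE M21. A peak within 1 kb of any start of a gene was a promoter peak, then one in the gene a gene body peak, then one within 25 kb a flank peak. Letters were searched on both strands. The steps were tested on simulated data. The 8 genes were named in full. Of the lists, genes without a promoter peak and those with the highest folds were named. Members and lists were chosen with earlier results of these data known. Alternatives were other distances, limits on q and fold, transcript types, joining of peaks, flank sizes and motif letters or windows. The software was Python 3.11.15 with SciPy 1.17.1, pandas 2.3.3, NumPy 2.4.6 and, for plots, matplotlib 3.10.9.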

Additional observations from a re-analysis of the deposited data

How the results depend on the processing

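Of 29 alternatives, 21 left their value within the limits set for it. A promoter peak was present at 7 of the 8 genes under all 7 alternatives tried for that count. For the 49 list genes the count was 44. It was 43 without Lrp1 where the peak had to cover the start, and 43 without Nr1h3 with protein-coding transcripts only. It was 41 with a fold of at least 5, where Elovl6, Stard3 and Tm7sf2 were lost. With a limit of 5 kb it was 46, where Abcg1 and Soat2 were gained. The peaks at or around the 8 genes numbered 33, and 20 with a fold of at least 5, 20 with a flank of 10 kb and 51 with a flank of 50 kb. The share of coding genes with a promoter peak was 53.7%, and 48.7% where the peak had to cover the start, 62.8% with a limit of 5 kb, 52% with a −log10 q of at least 5 and 48.8% with a fold of at least 5. The shorter SREBP letters matched in 2 genes against 1. No paired analysis was possible because a single library was analysed. With 12 of the 33 peaks under 25 summit fragments, low peaks have wide intervals.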

Other observations

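Base composition at the starts differed between the 8 genes. The 300 bp window at the start of Sqle had a GC content of 75.3% and that of Insig1 74.0%, while Idi1, with the highest fold, had the lowest GC content at 44.7% and a CpG observed-to-expected ratio of 0.410. Each gene was scored at 1 start only, and Idi1 has 5 distinct annotated starts, all with a peak within 1 kb. The medians over coding genes with a promoter peak were 61.0% and 0.778, and over those without one 49.3% and 0.238. Among the 8 genes the order by CpG ratio was therefore not the order by fold, with Abca1 at 0.888 without a peak and Idi1 at 0.410 with the highest.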
